A study of Bos taurus with 4 samples.

Results

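Ddx3x encodes an RNA helicase of the DEAD box family, and 7 of the 35960 library clones on these arrays carry its symbol in the platform annotation. The clones were chosen by that symbol, and the gene itself was selected on its PACAP over control ratios in these same 4 arrays, so those ratios are given as a description with no test. Of the 35960 clones, 22384 had 1 gene symbol, and together they named 11835 genes. Chromaffin cells of cattle, which secrete adrenaline and noradrenaline in the adrenal gland, were exposed in culture to 100 ng/ml of the neuropeptide PACAP over 6 h at 37 C. The labels describe the comparison cells only as controls, give chromaffin cells as the cell type and list the tissue as brain. Total RNA of treated cells (Cy5) and of control cells (Cy3) shared 1 array of mouse cDNA clones in each of 4 repeats. PACAP RNA carried Cy5 on all of them, and the effect of the dye on a clone and that of PACAP cannot be told apart. The labels do not say whether the repeats came from separate animals.

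DDX3X protein unwinds structured RNA with energy from ATP. It takes part in the translation of messenger RNAs with structured leaders, in RNA export from the nucleus and in the assembly of stress granules, and it also serves innate immune and Wnt signalling. The gene has a close relative on the Y chromosome, Ddx3y, and in the mouse a testis-expressed retrogene, D1Pas1, so a cDNA probe of one can bind transcripts of another. The cattle annotation lists DDX3X and DDX3Y as protein-coding genes. The arrays do not separate their transcripts.

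The 7 clones differ in what the scanner tables call them. In 5 of them (AI844881, AU023550, AW544374, AW544371 and AI843746) the title reads fibroblast growth factor inducible 14 and the UniGene code is the same. That title is called Fin14 here and is taken as an older name of Ddx3x, a reading that no file used here settles. Only BE984091 is titled as DEAD box polypeptide 3, and BE951909 is titled EST. The UniGene codes of BE984091 and BE951909 differ from each other and from that of the 5, so the scanner tables do not place the 7 clones in 1 cluster. The name of Fn14, the protein of Tnfrsf12a, is spelled out in the same words, so the title alone does not tell Ddx3x from Tnfrsf12a. Tnfrsf12a is represented by 2 other clones with a title and a UniGene code of their own. So the title names the gene outright only in BE984091, and the others rest on the annotation. A further clone, AI843104, shares the title and the UniGene code of the 5 but has no symbol in the annotation. It is not counted among the 7. Clone sequences were not used here.

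All 7 clones were bright. Their mean signal over both channels stood between the 82.2 and the 98.7 percentile of the 35110 tested clones, and all 7 lay in the brightest of 5 equal groups. Every one of the 28 spots had the highest quality score of 1 and an area of 106 to 149 pixels. PACAP signal was 30.1 to 419 times the SD of the local background. Control signal was 1.83 to 134 times that SD and exceeded 2 SD in 27 of the 28 spots, the exception being BE951909 on repeat 3. By that cut these are ratios of 2 measured signals at nearly all spots, with the weakest control values on repeats 2 and 3 (medians of 4.89 and 5.87 SD). The cut is lenient, since 12.0, 13.3, 9.81 and 12.5% of blank spots also passed it in the control channel on repeats 1 to 4.

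Before any normalisation, PACAP signal was above control signal in all 7 clones on repeats 1, 2 and 3, and in 3 of 7 on repeat 4. For AW544374, the brightest clone, PACAP signal was 11640.2, 5153, 3685 and 7033 on repeats 1 to 4, against control signal of 3164, 743, 574 and 4368. The PACAP signal of AI844881 was 1896, 4546, 3571 and 4541, against 573, 544, 438 and 3137 in the control. Both clones were higher in the PACAP channel on every array. For BE984091, titled as DEAD box 3, PACAP signal was 4196, 5730 (repeat 2), 2398 and 2568, and control signal 2304, 754, 435 and 4131. Its channels crossed on repeat 4, where control RNA was brighter across the whole array: the median log2 ratio of all tested clones there was -1.17 before normalisation, against 0.58, 0.54 and 0.07 on repeats 1 to 3. Signals can therefore be read only against the array's own channel balance. The authors' deposited ratio, which divides each spot by 1 calibration factor per array, was above 1 in all 28 spots and ran from 1.08 (BE984091, repeat 1) to 5.33 (AI844881, repeat 3). Of all library spots, 36.9, 33.1, 29.9 and 53.5% had a deposited ratio above 1 on repeats 1 to 4.

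**Figure D1:**
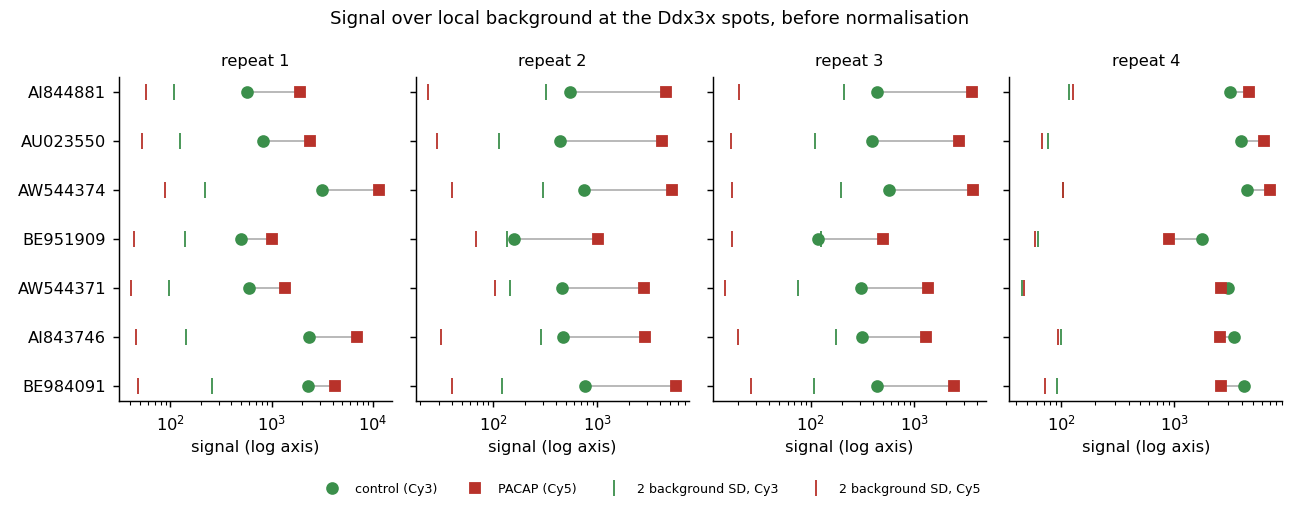
Signal over local background (log axis) of the 7 Ddx3x clones on each array, with control RNA as circles, PACAP RNA as squares and 2 SD of the local background as ticks. PACAP lies to the right of control in all 7 clones on repeats 1 to 3 and in 3 of 7 on repeat 4, and 27 of 28 control values exceed 2 SD.

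After loess normalisation, which sets the ratio of each spot against spots of like brightness on its array, the clones were higher with PACAP in 27 of 28 values. The mean over the 7 clones was 0.36, 1.10, 1.27 and 1.09 on repeats 1 to 4 (log2 ratio of PACAP over control), which gives 0.96 ± 0.40 (SD over arrays, n = 4), or 1.94-fold. Repeats 2, 3 and 4 were close together and repeat 1 stood below them. Without repeat 1 the mean was 1.15. Clone means ran from 0.52 to 1.31 with a median of 0.96, while the median over all tested clones was -0.01. Of the 7, 6 were higher on all 4 arrays, a pattern shown by 10.1% of the 33266 tested clones with values on every array and by 16.6% of those in the brightest of 5 groups. The same 6 also had a mean of 0.5 or more, which with the first condition held for 5.64% of those clones. Since the gene was selected on these ratios, nothing is read from the contrast with those shares. Limma called 0 of 35110 clones (0%) at an adjusted p under 0.05, with 3472 at an unadjusted p under 0.05, and 3 clones with trend and robust moderation, none of them of Ddx3x.

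The 3 clones of highest mean carried the Fin14 title. AI844881 had log2 ratios of 0.84, 1.13, 1.61 and 1.68 on repeats 1 to 4, a mean of 1.31 ± 0.40. AU023550 had 0.57, 1.38, 1.47 and 1.82, a mean of 1.31 ± 0.53. AW544374 had 0.57, 0.75, 1.22 and 1.82, a mean of 1.09 ± 0.56. In each of them repeat 1 was lowest and repeat 4 highest. The other Fin14-titled clones had lower means. AW544371 had 0.35, 0.89, 0.97 and 0.93, a mean of 0.79 ± 0.30, and AI843746 had 0.32, 0.88, 0.89 and 0.72, a mean of 0.70 ± 0.27. In both, repeats 2 to 4 lay close together and repeat 1 was again lowest. AW544371 and AW544374 came from the same source plate.

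The clones with other titles had the widest spread over arrays. BE951909, the dimmest of the 7, had 0.24, 1.79, 1.60 and 0.22, a mean of 0.96 ± 0.85. It was high on repeats 2 and 3, where its control signal was only 2.34 and 1.83 times the background SD, and low on repeats 1 and 4, where that signal was 7.26 and 55.9 times the SD. BE984091 had -0.34, 0.86, 1.11 and 0.46, a mean of 0.52 ± 0.63, with the only negative value among the 28. Its mean was 0.81 without repeat 1 and 0.33 without repeat 3. Fin14-titled clones averaged 1.04 ± 0.38 (SD over arrays, n = 4) and the 2 others 0.74 ± 0.71. The difference of 0.30 ± 0.63 was smaller than its spread and was positive on 2 of 4 arrays.

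**Figure D2:**
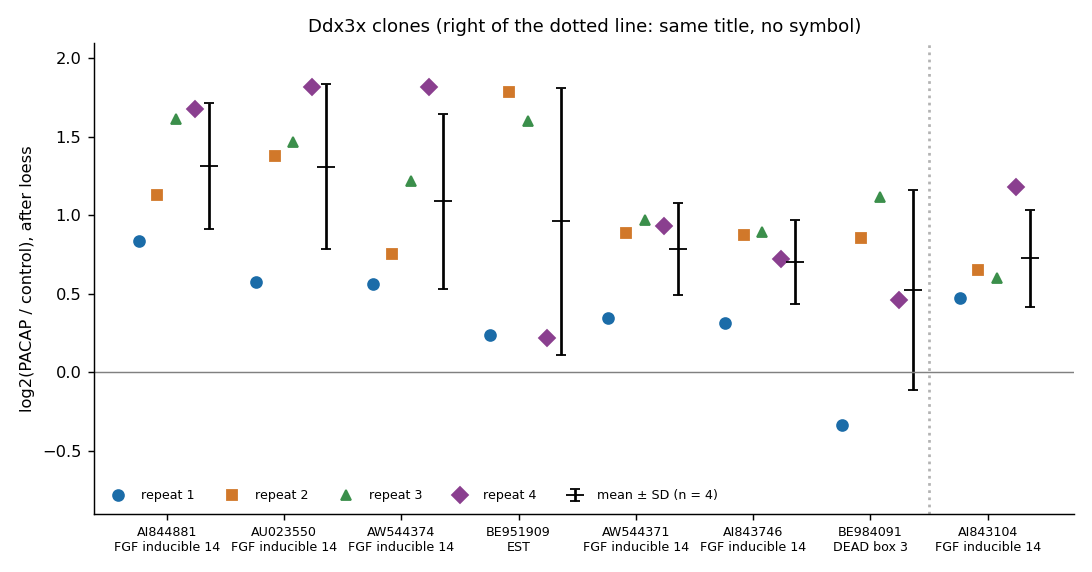
Log2 ratio of PACAP over control after loess for each Ddx3x clone, in order of their mean, with 1 marker shape per repeat and the mean ± SD over 4 arrays in black. All values but BE984091 on repeat 1 (-0.34) lie above 0, and the clone to the right of the dotted line, AI843104, shares the Fin14 title without a symbol.

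No step between neighbours in the order of clone means exceeded its SD over arrays. The order was AI844881, AU023550, AW544374, BE951909, AW544371, AI843746 and BE984091, with steps of 0.003, 0.22, 0.13, 0.18, 0.08 and 0.18. From first to last the difference was 0.79 ± 0.48, in the same direction on all 4 arrays. Both clones were picked as the ends of an order made from these values, so nothing is read from that difference. AI844881 had rank 1 or 3 on every array and BE984091 rank 5 to 7, whereas BE951909 had rank 1 on repeat 2 and rank 7 on repeat 4. Across clones the SD of the log2 ratio was 0.37, 0.37, 0.30 and 0.67 on repeats 1 to 4, so the clones disagreed most on repeat 4. There AI844881, AU023550 and AW544374 stood at 1.68 to 1.82 and the other clones at 0.22 to 0.93.

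The position of the clones among all others also varied with the array. At or above the Ddx3x mean lay 20.5% of tested clones on repeat 1, 7.88% on repeat 2, 7.33% on repeat 3 and 1.52% on repeat 4. In the brightest of 5 groups, which holds all 7 clones, the median log2 ratio was 0.04, 0.10, 0.10 and -0.03 on repeats 1 to 4. Print blocks, the sectors of an array laid down by 1 pin, had medians of the 4-array mean of -0.31 to 0.23 for those that held the 7 clones. The highest of them was that of BE984091, the clone of lowest mean, and the lowest that of AI843746. On single arrays block medians went further. That of BE984091 was 0.82 on repeat 2 and 0.50 on repeat 3, where the clone had 0.86 and 1.11. That of AI843746 was -0.58 on repeat 2, where the clone had 0.88. A loess fitted within each block gave a Ddx3x mean of 0.91, with BE984091 at 0.54 and AI843746 at 0.86.

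**Figure D3:**
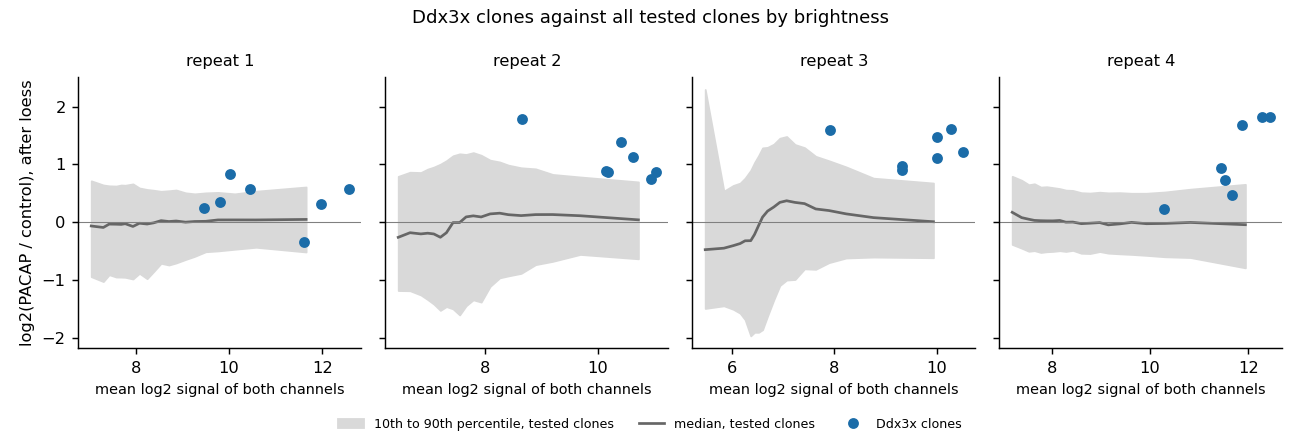
Log2 ratio of PACAP over control after loess (vertical axis) against mean log2 signal of both channels, with Ddx3x clones as points, and the median and the 10th to 90th percentiles of all tested clones in 20 groups of equal size by brightness as line and band. The points lie toward the bright end on every array, at 0.75 or more on repeats 2 and 3 and between -0.34 and 0.84 on repeat 1.

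The size of the ratio depended on how brightness was treated. Under median centring, which leaves a trend with brightness in place, the Ddx3x mean was 1.66 and all 7 clones were higher on all 4 arrays. Of all tested clones, 12.8% were higher on every array that measured them in that setting. In that setting the median of the brightest group of clones was 0.57, so that Ddx3x stood 1.09 above it. In the authors' deposited log2 ratios, centred on each array's median, the mean was 0.19 with an SD over arrays of 2.51, and 15 of 28 values were above 0. The repeat 1 mean was -3.56 there, and those of repeats 2 to 4 were 1.62, 1.16 and 1.54. The deposited log2 ratios take the local background off both signals a further time, which brought the control to its floor in 58.2, 83.1, 81.5 and 7.46% of library spots on repeats 1 to 4, and in 0, 4, 2 and 0 of the 7 Ddx3x spots. Ddx3x spots with the control at its floor had deposited log2 ratios of 8.22 to 11.33, and the others 0.20 to 7.17. Without centring, all 28 deposited log2 ratios were above 0. The median deposited log2 ratio of the whole array was 4.673, 5.511, 4.245 and -0.375 on repeats 1 to 4. Values above 0 are thus common on repeats 1 to 3, and nothing is read from that count. On repeat 1 the Ddx3x spots, at 0.32 to 1.71, all lay below the array median.

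**Figure D4:**
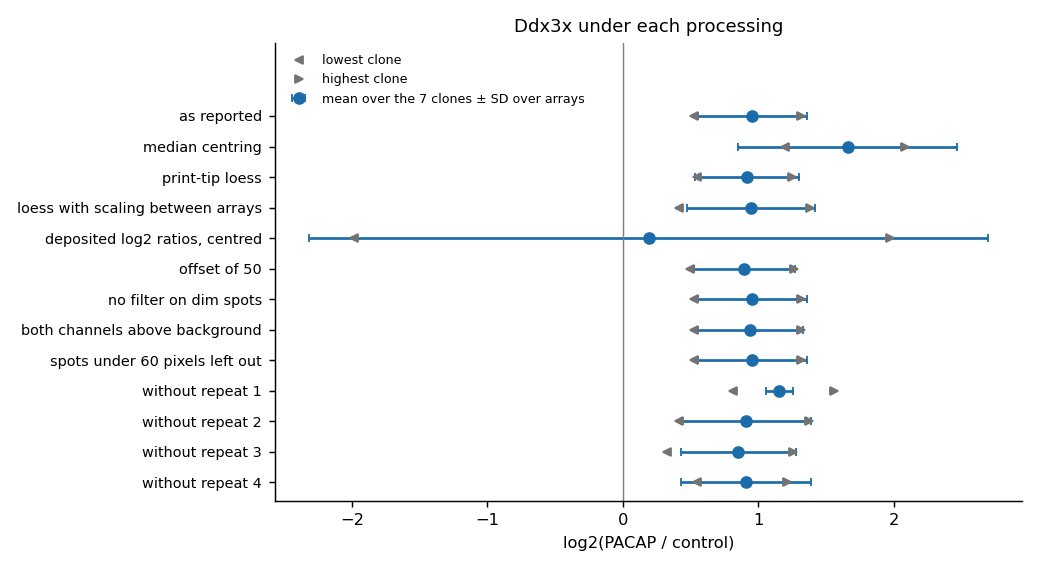
Mean log2 ratio over the 7 Ddx3x clones with its SD over arrays (circle and bar) and the lowest and highest clone mean (triangles) under each processing. The mean is between 0.85 and 1.15 in all settings shown other than median centring (1.66) and the deposited log2 ratios (0.19).

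Clones related to Ddx3x by title or family gave a mixed picture, and none passed in limma. AI843104, the Fin14-titled clone without a symbol, had log2 ratios of 0.47, 0.65, 0.60 and 1.18, a mean of 0.73 ± 0.31 that was higher on all 4 arrays (limma adjusted p = 0.487). Its mean lies within the range of the 5 Fin14-titled members, 0.70 to 1.31. There were 4 clones titled as the Y chromosome DEAD box polypeptide, without a matching symbol (1 of them, AI854280, is annotated as Dab2ip). Control signal exceeded 2 SD on all 4 arrays in AA408302 and AA408490, but on 1 array in AI843285 and on 2 in AI854280, whose means of 1.34 and 0.30 thus rest in part on control signal not above background. AA408302 had a mean of 0.66 ± 0.68, higher on 3 of 4 arrays. Its spot on repeat 1, the array where it was lower, had a quality score of 0, and its mean without repeat 1 was 0.995. AA408490, the brightest of the Y-titled clones, had 0.69, 0.98, 1.38 and 0.90, a mean of 0.99 ± 0.29 (limma adjusted p = 0.487). It lay in the print block of BE984091, whose median was 0.82 on repeat 2 and 0.50 on repeat 3. D1Pas1 had 1.14, 0.31, 3.60 and 0.35, a mean of 1.35 ± 1.54, with control signal above 2 SD on 2 of 4 arrays (limma adjusted p = 0.489). Without repeat 3 its mean was 0.60.

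Ddx4, the germ cell helicase Vasa, is the nearest other family member, and its 2 clones had unlike values. AW553230 had 0.30, 0.87, 0.63 and 0.75, a mean of 0.64 ± 0.24, and AI843771 had -0.03, -0.08, 0.13 and -0.14, a mean of -0.03 ± 0.12 (limma adjusted p = 0.487 and 0.967). Ddx4 is known as a germ line gene, and these values come from mouse probes on RNA of cattle. The Tnfrsf12a clones, AI853558 and C87282, had means of 0.09 ± 0.24 and 0.04 ± 0.47, each higher on 2 of 4 arrays and with control signal above 2 SD on 2 of 4.

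Of 29 tested DEAD box helicase genes, each taken at its brightest clone, 19 were higher and 10 lower, and limma called 0 (5 had an unadjusted p under 0.05, of which 4 higher). The list median was 0.13, but -0.31 with 10 genes higher from the deposited log2 ratios and 0.62 with 24 higher under median centring. Over 11740 named genes the median was 0.03 and 53.0% were higher, with 495 higher and 496 lower at an unadjusted p under 0.05. Besides Ddx4 and D1Pas1, the smallest p belonged to Ddx18, which works in ribosome biogenesis (0.71 ± 0.47, 4 of 4 arrays higher), and to mitochondrial Ddx28 (-0.64 ± 0.30, 0 of 4 higher). Ddx3x, at 0.96 as the mean over its clones, lay above all 29 except D1Pas1, each of them taken at its brightest clone only. Since Ddx3x was selected on these ratios, nothing is read from that position. Eif4a1, the helicase of the cap-binding complex, had 0.56 ± 0.30, with 1 of its 2 other clones higher and 1 lower.

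**Figure D5:**
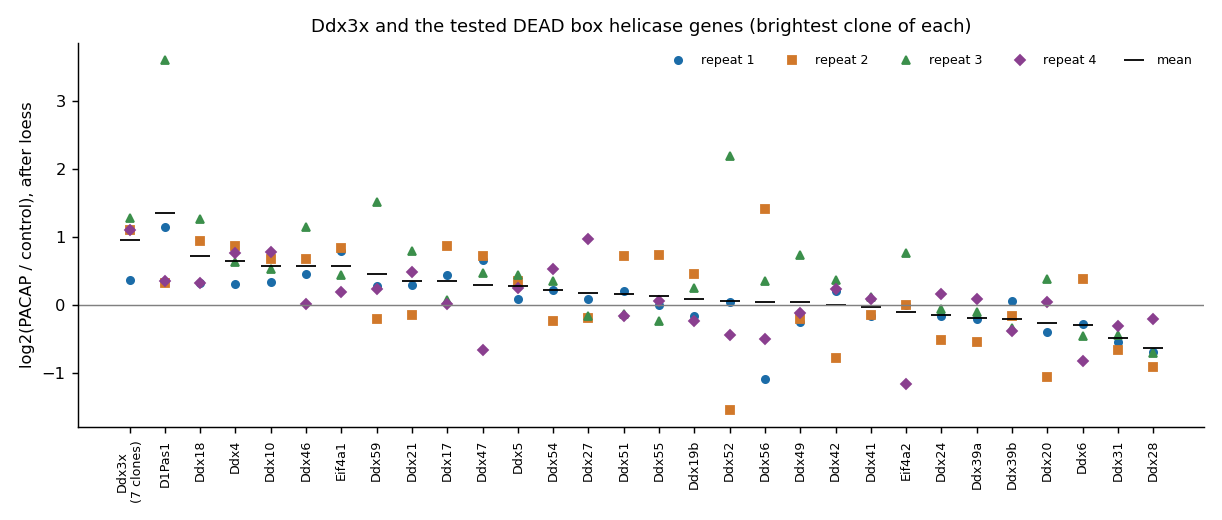
Log2 ratio of PACAP over control after loess on each repeat for Ddx3x (mean of 7 clones) and the 29 tested DEAD box helicase genes, ordered by their mean (black dash). Of the 29, 19 have a mean above 0 and 10 below it, and only D1Pas1 (1.35, with repeat 3 at 3.60) has a higher mean than Ddx3x. Ddx3x was selected on these ratios.

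Other gene groups tied to DDX3 function also had 0 genes called by limma. In translation initiation 11 of 15 tested genes were higher and 4 lower, with a median of 0.22 and 3 genes at an unadjusted p under 0.05, all higher, beside the 495 higher and 496 lower of 11740 named genes. From the deposited log2 ratios only 4 of the 15 were higher (median -2.11), while under median centring all 15 were (median 0.94) and print-tip loess gave a median of 0.11. Eif4g2, a scaffold of initiation complexes, had 0.70 ± 0.18, and Eif5b, which joins the ribosomal subunits, 0.79 ± 0.54, both higher on 4 of 4 arrays. Their other clones, 5 and 2 in number, were all higher too. Eif2s2, a subunit of the factor that brings the initiator tRNA, had 0.57 ± 0.28, with 4 of its 5 other clones higher and 1 lower. Eif2s3x had 0.53 ± 0.59, with control signal above 2 SD on 2 of 4 arrays.

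Among stress granule and messenger RNA binding genes 8 of 14 were higher and 6 lower (median 0.07), but 4 higher from the deposited log2 ratios (median -1.52) and 12 under median centring (median 0.62). G3bp2, a stress granule nucleator, had 0.56 ± 0.42, with all 6 of its other clones higher, whereas its relative G3bp1 had -0.64 ± 0.82, with 1 other clone higher and 1 lower. Atxn2l had -1.85 ± 0.69 (n = 3) from small spots of 25.5 pixels, the only gene of this list at an unadjusted p under 0.05. Usp10 had 0.30 ± 0.29, with 1 of its 3 other clones higher and 2 lower.

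In RNA export 5 of 8 were higher and 3 lower. The median was 0.31, but 0.05 with print-tip loess and 0.09 from the deposited log2 ratios, with control signal above 2 SD on 3 or more arrays for only 3 of the 8. The adaptor Alyref had 0.43 ± 0.43, the GTPase Ran 0.50 ± 0.75, Nxt1 0.36 ± 0.29 and Nxf1 0.40 ± 0.78. Of signalling partners 2 of 9 were higher and 7 lower (median -0.11), but 5 higher under median centring (median 0.08) and 1 with print-tip loess (median -0.19). The median was -0.29 from the deposited log2 ratios. Tbk1, a kinase of interferon induction, had -1.05 ± 0.85 (n = 3) from spots of 32.5 pixels, Dvl2 -0.48 ± 0.65, beta-catenin (Ctnnb1) -0.43 ± 0.20 and Csnk1e -0.24 ± 0.12. Both other clones of Ctnnb1 were lower, and of the 3 other Csnk1e clones 1 was higher and 2 lower.

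Among 381 genes with 5 or more tested clones, Ddx3x had rank 2 by the median of clone means, 0.96. The gene was selected on these ratios, so nothing is read from its rank. Rank 1 was held by the kinase gene Dclk1 (median 1.87 over 5 clones, from -0.18 to 1.99), and next after Ddx3x came Kif5b (median 0.89 over 6 clones, from -0.33 to 1.19). Unlike those, all 7 Ddx3x clones had a mean above 0, as in 35 of the 381 genes. Among the 35 were also Eif4g2 and Eif4e, at ranks 6 and 7 by the median of clone means. For 0 of the 381 genes was every clone higher on every array. The SD over the Ddx3x clone means was 0.30, against a median of 0.36 over the 381 genes, and 133 genes had a smaller SD.

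By root mean square difference over the 4 arrays, the genes nearest to the Ddx3x mean among 11361 were, in order, Luzp1, Rnf216, Mtrex, Slc6a3 and Cript, with differences from 0.0525 (Luzp1) to 0.187 (Cript) log2 units. Luzp1 had log2 ratios of 0.36, 1.10, 1.21 and 1.18, and Rnf216 had 0.42, 1.23, 1.13 and 1.08. Both have the low repeat 1 and the 3 close higher values of Ddx3x because they were picked for that likeness, and nothing is read from it. The other clones of Luzp1 and Rnf216, 3 and 2 in number, were all higher. Mtrex is an RNA helicase of the nuclear exosome by its symbol, but its clone title names a phosphatidic acid phosphatase. Of its 3 other clones 2 were higher and 1 lower. Slc6a3 had no other clone. Both other clones of Cript were higher, but control signal of the clone shown exceeded 2 SD on only 2 of 4 arrays.

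In RNA from whole cultures, a change in the number of cells of a type and a change in RNA per cell cannot be told apart. Of 11 chromaffin markers 8 were on the array, all tested, and 5 had control signal above 2 SD on 3 or more arrays. The genes Dbh, Pnmt and Slc18a2 were not analysed here. The corresponding counts were 5 of 6 for adrenal cortex, 6 of 6 for fibroblasts, 6 of 7 for leukocytes, 2 of 4 for endothelium, 2 of 4 for Schwann and sustentacular cells and 4 of 5 for brain glia, so control signal did not set chromaffin markers apart. Over these 7 marker lists and 4 arrays, the mean log2 ratio of a list lay between -0.40 and 0.50, with chromaffin markers at 0.09 to 0.50. Limma called 0 of their genes, of which 3 chromaffin markers had an unadjusted p under 0.05. Their part in the Ddx3x ratios was not tested.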

How the data were processed

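Scanner tables of 4 arrays, deposited by the authors, give linear intensity per spot, its background and SD, spot area in pixels, a quality score and a calibrated ratio, per the file headers. The labels and headers name no image program. The deposited intensity already had the background removed, as checked from total intensity and area. The authors' deposited series table holds log2 ratios. It was joined to spots by plate position for 95 plates (median difference per plate up to 0.0054, next best match 1.32 or more). Of 36096 library spots, 22477 had 1 symbol, 1111 several and 12508 none.

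With intensities below 1 set to 1, log2 ratios of Cy5 to Cy3 were normalised by global loess on each array (limma 3.58.1, R 4.3.3). Clones above 2 background SD in a channel on 3 arrays were tested across all clones with limma (Benjamini-Hochberg). The procedure was also run on simulated data of independent noise, which lack the brightness trends and block effects of these arrays. Python 3.11.15, pandas 2.3.3 and matplotlib 3.10.9 were also used. Named genes were the clones with the Ddx3x symbol or title, close paralogs, 5 genes of like pattern and up to 4 genes per list by smallest p; Eif4a1 and genes with many clones were picked after their values were seen, as were the Y-titled and Tnfrsf12a clones. Members, lists and tests were chosen with earlier results of these data known. The limma p-values set each mean against a spread over these 4 arrays that is moderated toward that of all clones tested. So a p can be small where a clone's own spread is wide, as for D1Pas1 (1.35 ± 1.54, unadjusted p = 0.035). The p-values cover only variation between these arrays, whose number limits the precision. Alternatives changed normalisation, offset, spot filters, moderation and arrays used.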

Additional observations from a re-analysis of the deposited data

Results flagged for a closer look

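Of 41 sets of 4 arrays examined (the Ddx3x clones, their mean and the other genes and clones named), 3 had an array far from the others, which chance gives in about 1 of 20 sets. In each it was repeat 1 that lay below. Ddx3x clone AW544371 had a log2 ratio of 0.35 there, against 0.89 to 0.97. AA408302, titled as the Y chromosome DEAD box polypeptide, had -0.35, against 0.87 to 1.09. That repeat 1 spot had a quality score of 0, while its spots on the other arrays had a score of 1. Luzp1 had 0.36, against 1.10 to 1.21, but it was named for its likeness to Ddx3x.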

How the results depend on the processing

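The mean over the Ddx3x clones was 1.66 under median centring and 0.19 from the deposited log2 ratios, and it ran from 0.85 to 1.15 with 1 array left out. Clones higher on every array that measured them numbered 0 of 7 from the deposited log2 ratios and 6 to 7 with 1 array left out. Limma called 0 clones with any 1 array left out, but 461 from the deposited log2 ratios and 3 with trend and robust moderation (Dclk1, Dus1l and C80571, which has no symbol). From the deposited log2 ratios AU023550 turned to -1.16, AW544371 to -1.86, BE984091 to -1.98 and the translation initiation median to -2.11. Of 84 clone values under the alternatives, 73 stayed within 1 SD of the reported value, and the others moved further or turned, with 3 below 0. The median of all tested clones was -0.24 from the deposited log2 ratios and -0.11 where both channels had to exceed background. The control channel on repeats 2 and 3, above 2 background SD in 53.0 and 46.0% of library spots, limits all ratios there. The limma test of the 4 ratios is itself paired, since each ratio sets the PACAP and the control sample of 1 repeat against each other.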
